A study of Schizosaccharomyces pombe with 6 samples.

Results

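The large subunit of the cytosolic ribosome was described gene by gene in mating mixtures of the fission yeast Schizosaccharomyces pombe. Its genes were taken from the array's annotation as those with a symbol of rpl or rpp and a number, where a probe set names 1 S. pombe gene. They came to 74 of the 2896 S. pombe genes measured, 67 rpl and 7 rpp genes, and all 74 were found in the RefSeq annotation. Copies of one protein share the number and differ in the last digits, as rpl3201 and rpl3202 do. There were 27 such groups of measured copies, 23 with 2 copies and 4 with 3, holding 58 of the 74 genes. RefSeq has 83 large-subunit symbols, and 9 of them had no probe set of their own. A gene counted alone may therefore have a copy that was not measured by itself. The gene rpl8 was kept apart from rpl801, rpl802 and rpl803, and rpl35a from rpl35, because they code for different proteins.

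Cells of the h+ strain YHL6381 (P cells) and of the h- strain SPQ-01 (M cells) had each been grown in YEPD at 30 °C until the OD600 was 5.0, and were then combined in equal parts. The mixtures were kept for 90 min in YEPME (3 arrays) or again in YEPD (3 arrays), and total RNA was hybridised to Affymetrix yeast arrays. The study compares mixtures that flocculated in YEPME with mixtures that did not in YEPD. The strain entry of the YEPME samples reads diploid where their other labels describe 2 mixed haploid strains, and the design text exchanges the codes of the media, so the groups follow the medium named for each sample. Every difference between media below would change sign if the design text were right. Level differences between replicates would keep theirs.

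A ribosome's large subunit joins amino acids into protein, and most of its protein genes in yeasts exist as 2 or more copies that code for identical or nearly identical proteins. Growing cells spend much of their transcription on these genes, and the copies are known to differ in promoter and in regulation. Large-subunit proteins include the moving stalk of protein L1, the acidic stalk that recruits elongation factors, and proteins that line the tunnel through which the new protein leaves.

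All 5 markers of P cells and all 8 of M cells were above background on the 6 arrays, among them the pheromone receptor genes map3 of P cells (7.51 to 8.34) and mam2 of M cells (7.51 to 8.58). The YEPD replicate 1 array was the highest of the 6 for 7 of the 8 M-cell markers and for 1 of the 5 P-cell markers. The summed log2 level of the M-cell markers was 77.3 on that array, against 65.5 to 69.1 on the other arrays, and that of the P-cell markers 43.9, against 43.5 to 45.4. The 2 arrays of replicate 1 stood apart: they correlated with the other 4 at 0.976 to 0.981 over all probe sets, against 0.998 to 0.999 among those 4. Background from the S. cerevisiae probe sets was 5.586 (YEPME) and 5.596 (YEPD) in replicate 1, against 4.78 to 4.81 on the other 4 arrays. The deposited values had up to 10 digits on the 2 arrays of replicate 1 and up to 6 on the other 4. Whether the distance of replicate 1 from the other arrays reflects cultures, arrays or processing was not tested. All 74 large-subunit genes were above background on every array. The differences between media are given for each replicate number, as log2 values. Levels of different probe sets are not set against each other, because each binds with its own strength, and a probe set may also bind the RNA of a near-identical copy.

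In YEPME, a few large-subunit genes were lower, in some groups 1 copy and, within replicates 2 and 3, both copies of L30 and of L32, while most of the family differed little from YEPD. With replicate 1 against replicates 2 and 3 as a block, limma put 6 of the 74 genes lower (8.11%, against 1.31% of all 2896 genes) at an adjusted p under 0.05, where 2.07% of all genes passed in either direction. These were rpl101, rpl1002, rpl1603, rpl1801, rpl3002 and rpl3201, with folds of 1.26 (rpl1801) to 1.58 (rpl1603) and an adjusted p of 0.0404 for each. No member was called higher in that fit, against 0.76% of all genes. At limma's unadjusted p under 0.05, 0 members were higher, against 217 of all 2896 genes. Within replicates 2 and 3, limma put 9 genes lower (12.2%, against 8.70% of all genes, with 15.6% in either direction) and 0 higher (against 6.91%). The added genes were rpl3001, rpl3202 and rpl3402. At an unadjusted p under 0.05 in this fit, 0 members were higher, against 507 of all 2896 genes. Without a block, limma called 0 of the 74 genes (0% of all genes), with a lowest adjusted p of 0.805. At an unadjusted p under 0.05 it put 7 lower and 0 higher, against 17 and 15 of all 2896 genes. The calls of the blocked fit need each array of replicates 2 and 3: without YEPME replicate 2, YEPME replicate 3, YEPD replicate 2 or YEPD replicate 3, it called 0 members. Within replicates 2 and 3, 2 members (rpl1603 and rpl3202) passed without YEPD replicate 2 and likewise without YEPD replicate 3.

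The remaining 65 genes, called in neither fit, had differences of -0.19 to 0.05, 39 of them above 0 and 26 below. Over all 74 genes, 65 (87.8%) differed by under 0.1 on the log2 scale, against 56.6% of all genes. The members are brighter than most genes, and their differences varied with level. The median size of the difference was 0.016 for the 69 members with a mean of 13 or more. It was 0.19 for the 5 members below 13 and 0.08 for all genes. The part of signal level in this contrast was not tested. The median difference was 0.01 for the members and -0.01 for all genes. By replicate, the members' median was 0.04, -0.02 and -0.02 in replicates 1, 2 and 3, against -0.042, 0.0049 and 0.0018 for all genes. The 3 YEPME values lay below the 3 YEPD values for 7 members (9.46%, against 2.94% of all genes), and above them for 0 (against 2.76%). Those 7 were the 6 of the blocked fit and rpl3001. The sign was the same in all 3 replicates for 9 members that were lower (12.2%, against 20.2% of all genes) and for 8 that were higher (10.8%, against 16.7%).

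**Figure D1:**
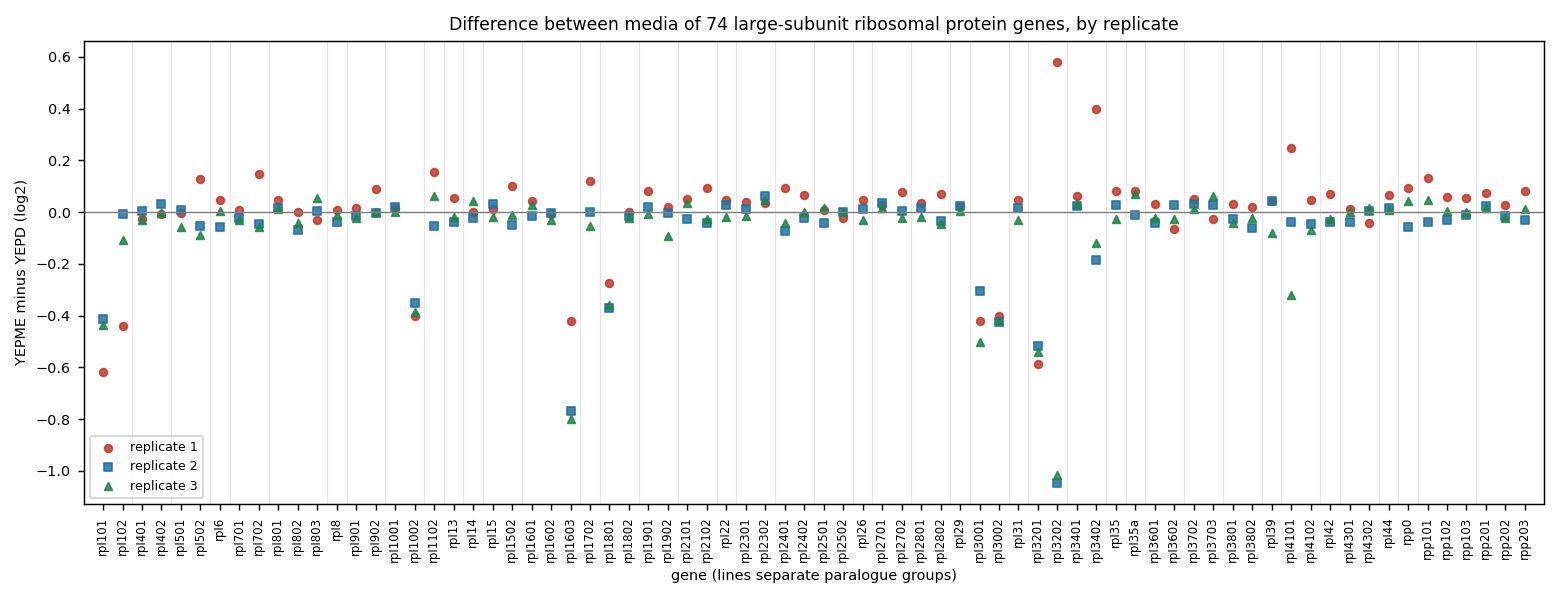
Difference between media (YEPME minus YEPD, log2) of each of the 74 large-subunit genes in replicates 1, 2 and 3, with thin lines between groups of copies. Most genes lie near 0, while 7 genes (rpl101, rpl1002, rpl1603, rpl1801, rpl3001, rpl3002 and rpl3201) lie below 0 by 0.27 or more in all 3 replicates, and rpl3202 and rpl3402 lie above 0 in replicate 1 only.

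Protein L16 has 3 copies, and the third was lower in YEPME. rpl1603 (SPBC2G2.05) had log2 values of 11.39, 11.11 and 11.07 in YEPME, against 11.81, 11.88 and 11.88 in YEPD in replicates 1, 2 and 3. The groups did not overlap, and the gap was narrower in replicate 1. The mean was 11.19 ± 0.17 in YEPME and 11.85 ± 0.04 in YEPD (SD, n = 3), a difference of -0.66 ± 0.09 (SE; limma with the block, adjusted p = 0.0404). With quantile normalization it was -0.68 and did not pass (adjusted p = 0.0709). The difference was -0.42 in replicate 1 and -0.77 and -0.80 in replicates 2 and 3, and the 2 sets of arrays departed in the interaction test (adjusted p = 0.00808).

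The other two copies did not pass. rpl1601 had 13.83, 13.66 and 13.66 in YEPME, against 13.79, 13.68 and 13.63 in YEPD, and rpl1602 had 13.80, 13.72 and 13.71 in YEPME, against 13.81, 13.72 and 13.74 in YEPD. Their differences were 0.02 ± 0.04 and -0.01 ± 0.04. The gap between rpl1601 and rpl1603 in the difference between media was 0.46, 0.75 and 0.83 in the 3 replicates, and that between rpl1602 and rpl1603 was 0.41, 0.77 and 0.77. An exact two-sided permutation test over the 6 arrays gave p = 0.1 for either gap, the smallest that it can give with 3 against 3 arrays, so this test cannot put any gap past the threshold.

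Protein L10, among the last to join the large subunit, had a split pair. rpl1002 (SPAP7G5.05) had 13.62, 13.59 and 13.59 in YEPME, against 14.02, 13.94 and 13.98 in YEPD, with no overlap. It fell by 0.38 ± 0.04 (adjusted p = 0.0404), and the 3 replicates gave -0.40, -0.35 and -0.39. rpl1001 (SPBC18E5.04) had 14.27, 14.08 and 14.06 in YEPME, against 14.25, 14.05 and 14.06 in YEPD, and differed by 0.01 ± 0.04 (adjusted p = 0.912). The gap between rpl1001 and rpl1002 was 0.42, 0.37 and 0.39 (mean 0.39 ± 0.02, SE; exact permutation p = 0.1). A further probe set annotated to both copies differed by 0.03, 0.01 and -0.05, values closer to those of rpl1001 than of rpl1002.

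Protein L18 also had 1 copy that was lower. rpl1801 (SPBC11C11.07) had 13.53, 13.56 and 13.60 in YEPME, against 13.80, 13.93 and 13.96 in YEPD. Every YEPME array lay below every YEPD array, by 1.26-fold on average (-0.33 ± 0.05, adjusted p = 0.0404). The copy rpl1802 (SPAPB17E12.13) had 13.66, 13.59 and 13.60 in YEPME, against 13.66, 13.61 and 13.63 in YEPD, a difference of -0.01 ± 0.04. The gap between rpl1801 and rpl1802 was -0.27, -0.36 and -0.33 (mean -0.32 ± 0.02; exact permutation p = 0.1).

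Protein L1 forms the stalk next to the site from which spent transfer RNA leaves. rpl101 (SPCC1183.08C) had 13.53, 13.48 and 13.46 in YEPME, against 14.15, 13.89 and 13.90 in YEPD. It fell by 0.49 ± 0.06 (adjusted p = 0.0404), with -0.62, -0.41 and -0.44 in the 3 replicates. Its copy rpl102 (SPBC30D10.18C) had 11.80, 12.86 and 12.72 in YEPME, against 12.24, 12.87 and 12.83 in YEPD. Both of its replicate 1 arrays were low, and the medium made a difference of -0.44 there and of -0.01 and -0.11 in replicates 2 and 3 (-0.19 ± 0.10, adjusted p = 0.414). Both copies departed between replicate 1 and replicates 2 and 3 in the interaction test (adjusted p = 0.0368 for rpl101 and 0.0293 for rpl102). The gap between rpl101 and rpl102 was -0.18, -0.41 and -0.33 (exact permutation p = 0.5).

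**Figure D2:**
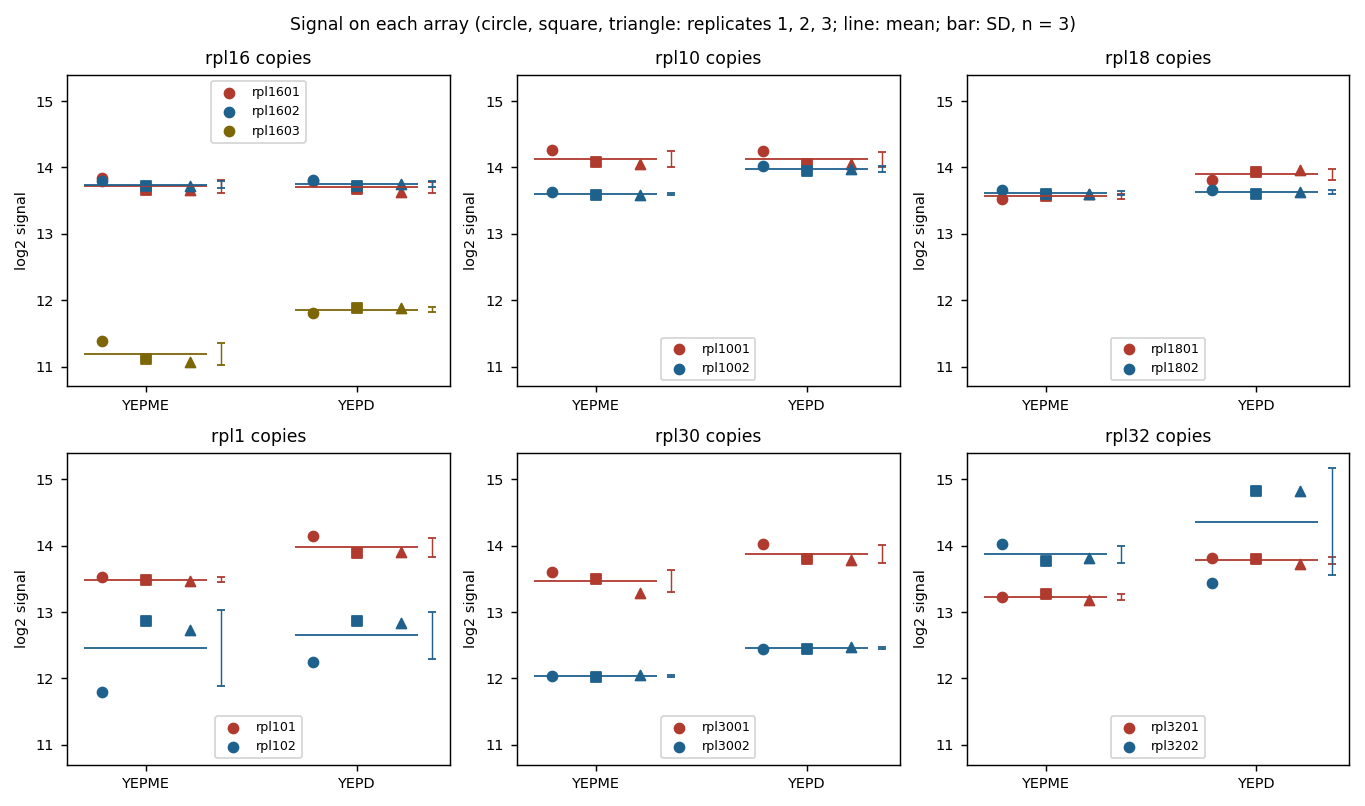
Log2 signal of the copies of 6 large-subunit proteins on each YEPME and YEPD array, with the mean as a line and the SD (n = 3) as a bar; heights of different copies are on different scales of binding and only changes within a copy can be read. One copy of L16, L10, L18 and L1 lies lower in YEPME on all 3 arrays, both copies of L30 do, and rpl3202 has its lowest value on the YEPD replicate 1 array and its highest on the other YEPD arrays.

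For protein L30, which in Saccharomyces cerevisiae binds its own transcript, both copies were lower. rpl3002 (SPAC1250.05) had 12.04, 12.02 and 12.06 in YEPME, against 12.44, 12.44 and 12.48 in YEPD, and fell by 0.42 ± 0.04 (adjusted p = 0.0404). rpl3001 (SPAC9G1.03C) had 13.61, 13.50 and 13.28 in YEPME, against 14.03, 13.80 and 13.78 in YEPD. Its groups did not overlap either, and it differed by -0.41 ± 0.07 (adjusted p = 0.0693 with the block, and 0.0311 within replicates 2 and 3, where eBayes with trend and robust settings gave 0.110). The gap between the 2 copies was -0.02, 0.12 and -0.08 in the 3 replicates and had no common direction.

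Protein L32 held the widest contrast between replicates. rpl3201 (SPBC16C6.11) had 13.23, 13.28 and 13.18 in YEPME, against 13.82, 13.80 and 13.72 in YEPD, and fell by 0.55 ± 0.05 (adjusted p = 0.0404), by 1.46-fold. rpl3202 (SPAC3H5.10) had 14.02, 13.78 and 13.81 in YEPME, against 13.44, 14.82 and 14.83 in YEPD. Its replicate 1 YEPD array was the lowest of the 6, and the other YEPD arrays were the highest. That array also had the high M-cell markers given above, whose part in this value was not tested. Within replicates 2 and 3 it fell by 1.03 ± 0.03 (adjusted p = 5.01e-04), and with quantile normalization by 0.58. On YEPD replicates 2 and 3, rpl3202 was the brightest of all S. pombe genes. Quantile normalization sets a value of that rank to the mean of the highest values of the 6 arrays. In replicate 1 it differed by 0.58, and the interaction test gave 1.61 ± 0.06 (adjusted p = 3.48e-04). With the block its difference was -0.49 ± 0.34 (adjusted p = 0.529). The gap of rpl3201 minus rpl3202 was 0.53 and 0.48 in replicates 2 and 3 and -1.17 in replicate 1.

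For protein L34, the replicates also differed in sign. rpl3402 (SPCC1322.15) had 12.47, 12.58 and 12.62 in YEPME, against 12.07, 12.76 and 12.74 in YEPD. The media overlapped, and the lowest value was again on the replicate 1 YEPD array with the high M-cell markers, whose part was not tested. It fell by 0.15 ± 0.03 within replicates 2 and 3 (adjusted p = 0.0461, and 0.0537 with arrays centred on their median) and differed by 0.40 in replicate 1 (interaction adjusted p = 0.00326). Leaving out any 1 of the 4 arrays ended that call (adjusted p = 0.0607 to 0.280). rpl3401 differed by 0.06, 0.02 and 0.03.

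Of the 74 genes, 7 departed between replicate 1 and replicates 2 and 3 in the interaction test (9.46%, against 46.4% of all genes), 5 with a higher value in replicate 1 (against 19.0% of all genes) and 2 with a lower one (against 27.4%). Besides rpl101, rpl102, rpl1603, rpl3202 and rpl3402 these were rpl502, a binding partner of the smallest ribosomal RNA, and rpl702, both named because they passed this test. rpl502 had 13.29, 13.31 and 13.27 in YEPME, against 13.16, 13.37 and 13.36 in YEPD. rpl702 had 13.77, 13.50 and 13.48 in YEPME, against 13.62, 13.55 and 13.54 in YEPD. Both were higher in YEPME in replicate 1, by 0.13 and 0.15, and lay between -0.09 and -0.05 in replicates 2 and 3. Replicate 1 has 1 array per medium, so this test takes its arrays to vary like the others. With eBayes trend and robust settings it called 18 higher and 2 lower. Without YEPD replicate 2 it called 3 higher and 0 lower, and without YEPD replicate 3, 2 and 0.

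**Figure D3:**
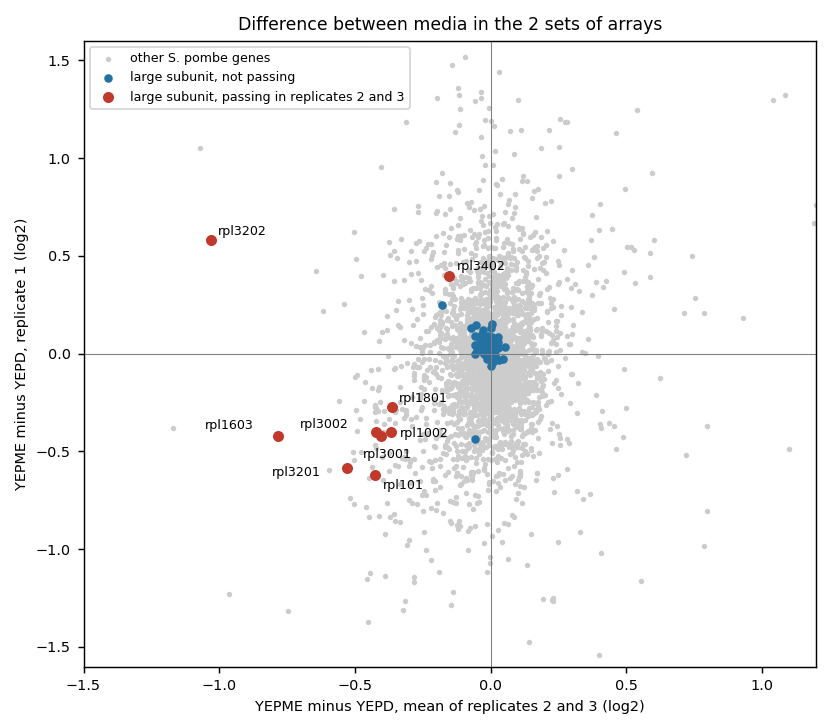
Difference between media in replicate 1 (vertical axis, log2) against the mean of replicates 2 and 3 (horizontal axis) for the large-subunit genes and all other S. pombe genes; 26 other genes lie outside the axes. Of the 9 genes that passed within replicates 2 and 3, 7 lie below 0 on both axes, and rpl3202 (-1.03 and 0.58) and rpl3402 (-0.15 and 0.40) lie above 0 in replicate 1.

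The acidic stalk, made of rpp0 and pairs of P1 and P2 proteins, showed small differences. rpp0, its base, had 14.12, 13.85 and 13.91 in YEPME, against 14.03, 13.91 and 13.87 in YEPD (0.02 ± 0.05, adjusted p = 0.845). The P1 genes rpp101, rpp102 and rpp103 differed by 0.05 ± 0.05, 0.01 ± 0.04 and 0.01 ± 0.04, and the P2 genes rpp201, rpp202 and rpp203 by 0.04 ± 0.04, -0.005 ± 0.042 and 0.02 ± 0.05. Over the 7 genes the differences ran from 0.03 to 0.13 in replicate 1, from -0.06 to 0.02 in replicate 2 and from -0.02 to 0.04 in replicate 3. None passed limma with the block or within replicates 2 and 3.

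Across the 27 groups, the copies of a protein mostly had close differences when averaged over the replicates. The range among copies in the difference between media had a median of 0.02, lay under 0.1 in 23 groups and exceeded 0.2 in 4 (L16, L10, L18 and L1). The next widest ranges were those of rpl801 to rpl803 (0.06), of rpl19 (0.06) and of rpl32 (0.05), the last an average over replicates of opposite sign. A narrow range over all replicates can hide wider ones within them: that of rpl34 was 0.01 over all, 0.34 in replicate 1 and 0.18 in replicates 2 and 3, and that of rpl41 was 0.01, 0.20 and 0.12. Of the 35 pairs of copies, 20 had a gap of opposite sign in replicate 1 and in replicates 2 and 3. rpl802 differed by -0.04 ± 0.04 and rpl801 by 0.02 ± 0.04, and rpl1902 by -0.03 ± 0.05 and rpl1901 by 0.03 ± 0.04. rpl2302 differed by 0.05 ± 0.04 and rpl2301 by 0.01 ± 0.04. Among the pairs, 10 had a gap of the same sign in all 3 replicates and 6 reached the smallest exact permutation p of 0.1. Beside the 4 pairs given above these were rpl1901 with rpl1902 (mean gap 0.06 ± 0.03) and rpl401 with rpl402 (-0.02 ± 0.0035), whose gaps are small.

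**Figure D4:**
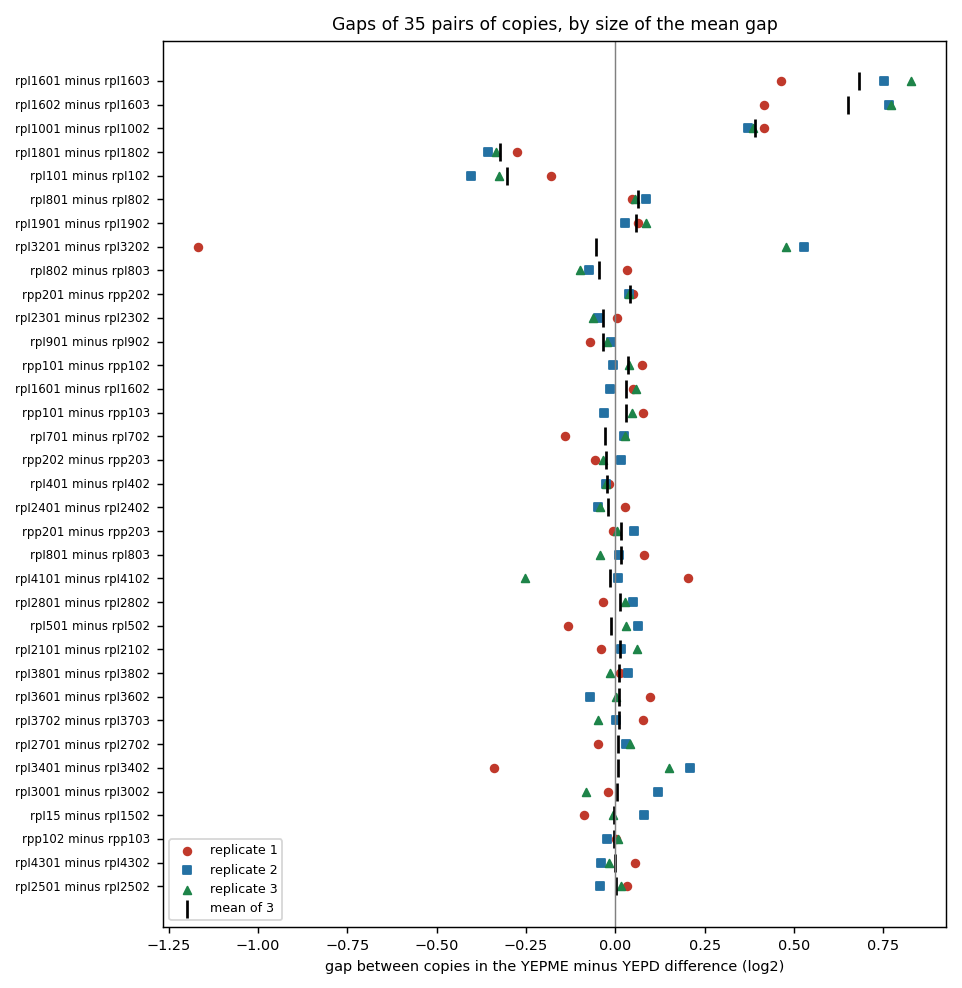
Gap between copies in the YEPME minus YEPD difference (log2) for the 35 pairs of copies, in replicates 1, 2 and 3 and as their mean, ordered by the size of the mean gap. The pairs with rpl1603, rpl1002, rpl1801 and rpl101 stand away from 0 on 1 side in all 3 replicates, whereas rpl3201 with rpl3202 lies at -1.17 in replicate 1 and at 0.53 and 0.48 in replicates 2 and 3.

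Several copies were measured only together. Probe sets annotated to both copies of L3, which reaches towards the catalytic centre, and to both copies of L12, at the foot of the acidic stalk, differed by -0.02 and 0.03 on average. A set shared by rpl1101 and rpl1102 differed by 0.01, and rpl1102 on its own probe set by 0.05 ± 0.05. A single set of this kind cannot show a change confined to 1 copy. The second probe set of rpl3702 differed by 0.05, 0.04 and -0.0045, against 0.05, 0.03 and 0.01 on the set used.

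The level of the family also differed between the 2 sets of arrays, in a direction that turned with quantile normalization. On the deposited values, 45 of the 74 genes were higher in replicate 1 than in replicates 2 and 3 (60.8%, against 35.0% of all genes) and 3 were lower (4.05%, against 36.0%), where 71.0% of all genes passed in either direction. The median was 0.17 for the members and -0.0021 for all genes. Without YEPD replicate 2, 24 were higher and 1 was lower, without YEPD replicate 3, 25 and 1, and without YEPME replicate 1, 41 and 7. With arrays centred on their median these counts were 57 and 1, while the median of all genes moved to 0.07. With quantile normalization over the S. pombe genes they turned to 2 higher and 21 lower, with a median of -0.07 for the members. The shift on the deposited values was not particular to the large subunit. Of 45 small-subunit genes, 31 were higher in replicate 1 (68.9%, against 35.0% of all genes) and 1 was lower (2.22%, against 36.0%), with a median of 0.19.

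**Figure D5:**
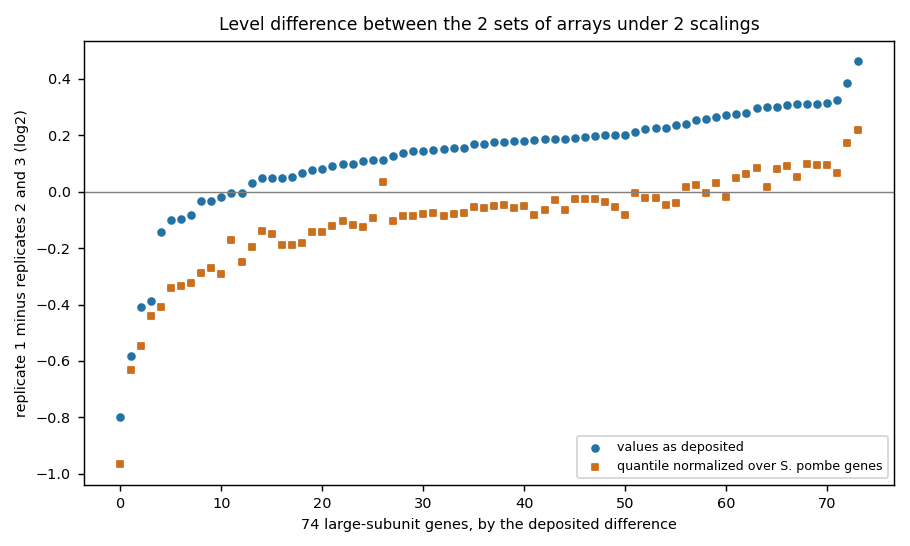
Level in replicate 1 minus replicates 2 and 3 (log2) of the 74 large-subunit genes, ordered by the deposited values, on the deposited values and after quantile normalization over the S. pombe genes. The bulk of the points lies above 0 on the deposited values (median 0.17) and below 0 after quantile normalization (median -0.07), while rpl102 lies lowest under both.

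Single genes stood out from this shift. rpl102 had log2 values of 11.80 and 12.24 in replicate 1 (YEPME and YEPD) and of 12.72 to 12.87 on the other arrays, a level difference of -0.80 ± 0.10 (adjusted p = 0.00158). Its copy rpl101 had a level difference of 0.15 ± 0.06 (adjusted p = 0.0719), so that the copies were 0.95 apart. rpl3402 (-0.41 ± 0.13, adjusted p = 0.0371) and rpl803 (-0.14 ± 0.05, adjusted p = 0.0412) were the other two lower members, and rpl3202 (-0.58 ± 0.36) and rpl4101 (-0.39 ± 0.14) did not pass. rpl4101, for the very short protein L41, had 11.47, 11.81 and 11.47 in YEPME, against 11.22, 11.85 and 11.79 in YEPD. rpl4102 had 13.82, 13.63 and 13.56 in YEPME, against 13.78, 13.67 and 13.63 in YEPD, with a level difference of 0.18 ± 0.05 (adjusted p = 0.0283).

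The largest positive level differences were those of rpl29 (0.46 ± 0.05), rpp201 (0.39 ± 0.04), rpl42 (0.33 ± 0.05), rpl3802 (0.31 ± 0.05) and rpp202 (0.31 ± 0.04). rpl29 had 14.15 and 14.13 in replicate 1 (YEPME and YEPD) and 13.65 to 13.72 on the other arrays, and rpl29 and rpp201 were the 2 genes that passed as higher after quantile normalization.

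Other genes of ribosome production give the setting. Of 45 small-subunit protein genes, 7 fell with the block (15.6%, against 1.31% of all genes) and 0 rose (against 0.76%). In limma, 0 were higher at an unadjusted p under 0.05, against 217 of all 2896 genes. Their median difference was -0.0003. A list of large-subunit assembly factors was matched by symbol, and it counts arb1 and mis3, which in S. pombe are not such factors. Of its 25 measured genes, of 49 listed, 9 fell with the block, mis3 among them (36%, against 1.31% of all genes), and 0 rose (against 0.76%). Their median was -0.39, and 0 were higher at an unadjusted p under 0.05 in limma, against 217 of all 2896 genes. Within replicates 2 and 3, 21 of the 25 were lower, mis3 among them (84%, against 8.70% of all genes), and 1 was higher. That was arb1, which is not an assembly factor (0.23 ± 0.04, adjusted p = 0.0316). It differed by -0.35 in replicate 1 and is named because it was the single one. The 9 genes that fell with the block ran from -0.94 ± 0.13 (nop16) to -0.33 ± 0.05 (grn1, for a GTPase). Among them were rrs1, which in Saccharomyces cerevisiae helps to place the smallest ribosomal RNA, at -0.49 ± 0.04 and rlp7, related to L7, at -0.38 ± 0.05. These 4 were picked from the 9 after their values were seen. tif6, which keeps the subunits apart until assembly ends, differed by 0.03 ± 0.07, with 0.22, -0.09 and -0.03 in replicates 1, 2 and 3. mrt4, whose product sits where rpp0 will bind, differed by 0.02 ± 0.18, an average over opposite signs. It differed by 0.58 in replicate 1 and by -0.27 and -0.26 in replicates 2 and 3, where limma called it lower (adjusted p = 0.0112). The 25 listed genes also had a median level difference of -1.52 between replicate 1 and replicates 2 and 3, and 23 of the 25 were lower in replicate 1.

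Of 7 measured translation factor genes, of 11 listed, 0 passed with the block (against 2.07% of all genes). In limma, 0 had an unadjusted p under 0.05, against 478 of all 2896 genes. tif512 and ef1a-a, chosen by their mean signal, differed by -0.02 ± 0.04 and -0.01 ± 0.04. Of 18 measured genes on a list of regulators of ribosomal protein genes, of 21 listed, 0 passed with the block (against 2.07% of all genes). At limma's unadjusted p under 0.05, 2 were higher, against 217 of all 2896 genes. Within replicates 2 and 3, limma called 1 of the 18 higher (5.56%, against 6.91% of all genes) and 0 lower (against 8.70%). The 1 gene was cgs1 (0.25 ± 0.05, adjusted p = 0.0442). In level, 15 of the 18 differed between replicate 1 and replicates 2 and 3 (against 71.0% of all genes), 9 higher and 6 lower. The list also counts rap1 by its symbol, which in S. pombe is not known as such a regulator. tbp1, for the TATA-binding protein, differed by 0.06 ± 0.04 and rhb1, for a GTPase of the TOR pathway, by -0.09 ± 0.09.

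Some members lie close to other ribosomal protein genes. In RefSeq's gene order, the small-subunit gene rps1401, rpl702, rpl3202 and rpl501 follow each other with 2 protein-coding genes between neighbours. rps1401 differed by -1.23, -1.01 and -0.92 in the 3 replicates and rpl3202 by 0.58, -1.05 and -1.02, whereas rpl702 differed by 0.15, -0.05 and -0.06 and rpl501 by -0.0028, 0.01 and -0.06. rpl1801, which fell, has 1 gene between it and rpl502, which did not pass.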

How the data were processed

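Log2 values per probe set were deposited for 6 arrays by the authors. RMA (background correction, quantile normalization and summary of probes) and Partek are named per the submitters' processing notes, while their versions, and whether one RMA run held all 6, are not stated in these sources. Only 6 arrays limit the precision, and with no separate cultures described beyond the word biological, p-values measure the spread between these samples, which may be technical.

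Probe sets were named by the platform annotation and matched to RefSeq ASM294v3, used for names and gene order. Of 10924 probe sets, 2914 name 1 S. pombe gene, 20 several, 2600 S. cerevisiae genes and 5224 none. A gene took its probe set of highest mean (2896 genes). Background was the 95th percentile of the S. cerevisiae probe sets, 4.78 to 5.60. No sequence was used.

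Tests were limma 3.58.1 (R 4.3.3; lmFit, eBayes, two-sided) over all 2896 genes with Benjamini-Hochberg adjustment, called at an adjusted p under 0.05. The fits had no block, replicate 1 against replicates 2 and 3 as a block (here called the block), replicates 2 and 3 alone, the interaction of medium with these 2 sets of arrays, and their level coefficient. SEs are limma's moderated SEs, and for a gap between copies those of a linear model with the block. Same-numbered arrays deviated together from their group means (r of 0.853, 0.836 and 0.836 over genes for numbers 1, 2 and 3). Differently numbered arrays 2 and 3 gave 0.816. Because replicate 1 stands apart in both media, this check cannot show whether numbers 2 and 3 are paired across media. Their pairing follows the replicate numbers alone. The fits were tested on simulated data.

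Members, lists, tests and the rule for named genes were chosen with earlier results of these data known. Named were members called between media, copies in the 10 groups of widest range, the 5 highest and 5 lowest level differences, the rpp genes, and of each other list up to 4 called and 2 bright genes. Alternatives were array centring, quantile normalization, dropping dim genes, averaging probe sets, trend and robust variance, the replicate block and leaving out arrays.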

Additional observations from a re-analysis of the deposited data

Results flagged for a closer look

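The difference between media departed between replicate 1 and replicates 2 and 3 for 7 large-subunit genes in limma's interaction test, given here as the value in replicate 1 minus that in replicates 2 and 3. It was 1.61 for rpl3202, 0.55 for rpl3402, 0.36 for rpl1603, 0.20 for rpl502, 0.20 for rpl702, -0.19 for rpl101 and -0.38 for rpl102. The sign of the difference turned for rpl3202, rpl3402, rpl502 and rpl702, and was negative in both sets of arrays for rpl101, rpl102 and rpl1603. Replicate 1 is 1 pair of arrays.

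Among 11 probe sets annotated to large-subunit genes of Saccharomyces cerevisiae, which the comparisons do not use, that of RPL36A lay above background on all 6 arrays, with a lowest value of 6.15 and a highest of 6.46. Of all 2600 S. cerevisiae probe sets, 62 did so (2.38%).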

How the results depend on the processing

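With no block, 0 members passed in limma under every alternative run. The replicate block, by the pairing of numbers, gave 0 there and 9 lower within replicates 2 and 3, as without it, and was run for these counts only. With the batch block, 5 to 7 members were lower under the other settings and 0 to 9 without 1 array; within replicates 2 and 3, 8 or 9 were lower, and 2 to 9 without 1 array. In the interaction test, trend and robust variance gave 18 higher, quantile normalization 1 lower, and leaving out 1 array 2 to 6 higher and 0 to 2 lower; it cannot be estimated without a replicate 1 array. For replicate 1 against replicates 2 and 3, quantile normalization gave 2 higher and 21 lower, centred arrays 1 lower, trend and robust variance 5 lower, and leaving out 1 array 24 to 52 higher and 1 to 7 lower. Quantile normalization turned the level difference of rpl1001 (-0.0838), rpl1002 (-0.19), rpl1601 (-0.0768), rpl1602 (-0.14), rpl1802 (-0.15), rpl1902 (-0.00512), rpl2301 (-0.14), rpl3001 (-0.0234), rpl3201 (-0.20), rpl801 (-0.0361), rpp0 (-0.0643) and rpp101 (-0.0664). Without 1 array, the level difference of rpl3202 ran from -1.39 to 0.23 and the blocked difference of rpl3402 from -0.15 to 0.0956. Without 1 array, the gap of rpl3201 minus rpl3202 ran from -0.31 to 0.43, of rpl801 minus rpl802 from -0.0115 to 0.14, of rpl2301 minus rpl2302 from -0.12 to 0.0323 and of rpp101 minus rpp102 from -0.0130 to 0.0637. By replicate block, rpl3201 minus rpl3202 was 0.50 over replicates 2 and 3, and rpl2301 minus rpl2302 was 0.0034 in replicate 1. Groups whose copies ranged over 0.2 numbered 3 to 6 in all settings. The cause was not tested. All members lay well above background, so signal over background did not limit their detection. Most were bright: 71 of the 74 had a mean of 12.49 or more, the top decile of all genes. The median size of the blocked difference was 0.016 for the 69 members with a mean of 13 or more, against 0.19 for the 5 below. Whether the high signal narrowed the differences was not tested.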
